A study of Mus musculus with 4 samples.

Results

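Transcripts that mark brown fat and adipocytes were followed in RNA of whole fetal mouse brain. The 9 genes, Fabp4, Ucp1, Cidea, Car3, Cfd, Adipoq, Cox7a1, Plin1 and Pparg, were chosen by name, and every array probe that carries one of these names was taken, which gave 12 probes of 41174 (9 genes of 28104). The choice was made from log2 ratios on these same arrays, so those ratios are given as a description and none of them was tested. All mice were C57BL/6J. In the food deprivation group (FD), dams went without food overnight at gestation day 17. In the food restriction group (FR), dams received 50% of the chow eaten by control dams over gestation days 10 to 17, and caesarean section was on gestation day 18, a day that the design text gives for FR only. Control dams ate ad libitum. Brain RNA of 5 fetuses was pooled in each group. A treated pool and a control pool shared each array, and every comparison has 2 arrays that differ in which pool carried which dye. The design text states that care was taken to keep other tissue out of the dissected samples.

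The labels do not say whether the FD and FR arrays carried the same control RNA, so the control RNA is named here by its arrays, as the control pool of FD and the control pool of FR. With 1 pool per condition (n = 1), the arrays measure technical error only. Chance differences between pools and effects of the diet cannot be told apart. In pooled tissue RNA, fewer cells of a type and less RNA per cell cannot be told apart either. Each array had 43379 spots besides controls, of which 73.5% to 84.2% were well above background in the treated channel and 71.4% to 85.3% in the control channel. The number of arrays limits the precision of every value.

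Brown adipocytes burn fatty acids to make heat. Fatty acids are carried in the cell by binding proteins, stored as triglyceride in droplets coated by perilipins, released by lipases and oxidised in mitochondria, where uncoupling protein 1 lets protons flow back across the inner membrane without making ATP. Sympathetic nerves switch this on through cyclic AMP, and the nuclear receptor PPARγ drives the adipocyte programme. In mice, brown fat depots form before birth between the shoulder blades and around the neck, whereas the brain itself contains no adipose tissue.

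The probes are 60 bases long, and the values below rest on these sequences. Positions come from the array files (build mm9), in which exons and untranslated regions are not annotated. The probes shown are a Fabp4 probe with a large difference in FD, a dim Fabp4 probe nearer the 5′ end of the gene, the Ucp1 probe and the Adipoq probe. The interval of the first spans 730 bases for a probe of 60, so its match is interrupted on the genome.
Fabp4 A_51_P336830, chr3:10204533-10205262, minus strand: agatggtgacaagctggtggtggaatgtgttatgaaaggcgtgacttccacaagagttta
Fabp4 A_52_P564544, chr3:10208442-10208501, minus strand: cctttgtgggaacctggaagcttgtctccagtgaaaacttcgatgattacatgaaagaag
Ucp1 A_51_P426353, chr8:85821788-85821847, plus strand: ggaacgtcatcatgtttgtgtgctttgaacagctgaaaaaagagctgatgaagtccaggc
Adipoq A_51_P458451, chr16:23157576-23157635, plus strand: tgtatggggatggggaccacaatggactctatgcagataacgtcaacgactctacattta
The GC content of the 12 probes ran from 36.7% to 55%, with a median of 45%, against a median of 40% over all 41174 probes. The brightest Fabp4 probe, A_51_P336833 (chr3:10204452-10204511, minus strand), had the lowest GC content of the 12.

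After overnight food deprivation, 3 of the 7 measured genes were at least 1.5-fold lower in the FD pool, relative to its control pool, on both arrays. They were Fabp4, Ucp1 and Car3. Fabp4, the fatty acid binding protein of adipocytes, was 8.48-fold lower, Ucp1, which uncouples brown fat mitochondria, was 2.88-fold lower, and Car3, a cytosolic carbonic anhydrase abundant in fat and slow muscle, was 1.97-fold lower. Over all 17945 genes measured on the FD arrays, 0.128% were lower by this rule and 0.0892% were higher. The choice of the 9 genes used this contrast, so nothing is read from the count or from the median. The median log2 ratio of the 7 genes was -0.72, against 0.00 over all genes.

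For Fabp4, probe A_51_P336833 had a spot intensity of 151 in the FD pool and 576 in its control pool on array 1, and of 81.4 in the FD pool and 1743 in its control pool on array 2. The FD pool was labelled with Cy5 on array 1 and with Cy3 on array 2, and Cy5 gave the brighter signal for the same RNA. The log2 ratios after normalisation were -3.22 and -2.95. Probe A_51_P336830 gave -2.80 and -2.67, a mean 6.65-fold difference. On both probes the control pool stood far above the FD pool in each dye, and the arrays differed from each other by a small part of the difference.

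The third Fabp4 probe, A_52_P564544, was dim everywhere. Its intensity was 59.8 and 53.5 in the FD pool, not well above background, against 62.2 and 93.2 in the control pool. The FD pool was at least 1.23-fold lower on it. It therefore shows the same direction with a much smaller bound, at a signal close to the local background.

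Ucp1 had intensities of 104 in the FD pool and 175 in its control pool on array 1, and of 68.1 in the FD pool and 419 in its control pool on array 2. The log2 ratios were -1.62 and -1.44. The FD pool was well above background on both arrays, so Ucp1 was lower in FD and still detected there.

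Car3 probe A_51_P431329 (chr3:14871781-14871840, plus strand) had log2 ratios of -0.998 and -0.95. The other Car3 probe, A_52_P639461 (chr3:14864731-14864790, plus strand), gave 0.02 and -0.02 at intensities of 76.3 and 61.3 in the FD pool against 59.4 and 87.5 in the control pool. The 2 probes of Car3 thus gave different ratios, and the mean over both was -0.49, under the size rule. Probe A_52_P639461 stood 34.3 and 13.3 above the local background in the FD pool, and 11.4 and 37.5 in the control pool. At such signals the offset of 50 pulls ratios towards 0, so no conclusion is drawn from its ratio. In the array file the probe without a difference belongs to another transcript record than the brighter probe.

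Fabp4, Ucp1 and Car3 are dim probes in the FD pool, where the offset of 50 pulls ratios towards 0. In the scanner software's own log ratio, which has no such offset, the mean log2 ratios were -4.20 for Fabp4, -2.87 for Ucp1 and -1.78 for Car3.

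Transcripts of both secreted adipocyte proteins of the set were below detection after food deprivation. Among all pools, only the FD controls had either gene well above background on both arrays. Cfd encodes adipsin (complement factor D), a serine protease of the alternative complement pathway that adipocytes secrete. Its intensity was 59.6 and 54.0 in the FD pool, not well above background, against 84.0 and 141 in the control pool, where it was well above background on both arrays. Cfd was at least 1.72-fold lower in FD. Adipoq, the hormone adiponectin, had intensities of 59.7 and 55.2 in the FD pool, not well above background, against 73.8 and 118 in the control pool, and was at least 1.48-fold lower. In both genes the control pool was brighter on each array, and the bounds are of about the size that the rule asks for. The bound for Adipoq equals its plain ratio, since its signal in the FD pool was taken as measured.

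Cidea and Cox7a1 were bright on all arrays and showed smaller differences. Cidea, a lipid droplet protein of brown fat that helps droplets fuse, had intensities of 1563 in the FD pool and 919 in its control pool on array 1, and of 642 in the FD pool and 2679 in its control pool on array 2. The log2 ratios were -0.95 and -0.50, so that array 1 passed the 1.5-fold size (0.58 on the log2 scale) and array 2 did not. Cox7a1, the cytochrome c oxidase subunit of heart, muscle and brown fat, gave -0.50 on both arrays. Of all genes measured in FD, 95% had mean log2 ratios between -0.28 and 0.27, so that the means of Cidea (-0.72) and Cox7a1 (-0.50) lay outside that range. The genes were chosen from ratios on these same arrays, so the range only gives a scale and is no test of them.

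Plin1, the perilipin that coats the lipid droplets of adipocytes, and Pparg, which encodes PPARγ, were near 0 in FD. Plin1 had log2 ratios of -0.10 and -0.11. Pparg was spotted 10 times on each array, and its log2 ratio was 0.09 ± 0.05 on array 1 (SD over 9 spots) and -0.10 ± 0.06 on array 2 (SD over 8 spots). The change of sign with the dyes was larger than the spread between spots, and the spots show how far 2 arrays of the same pools can differ for 1 probe.

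**Figure D1:**
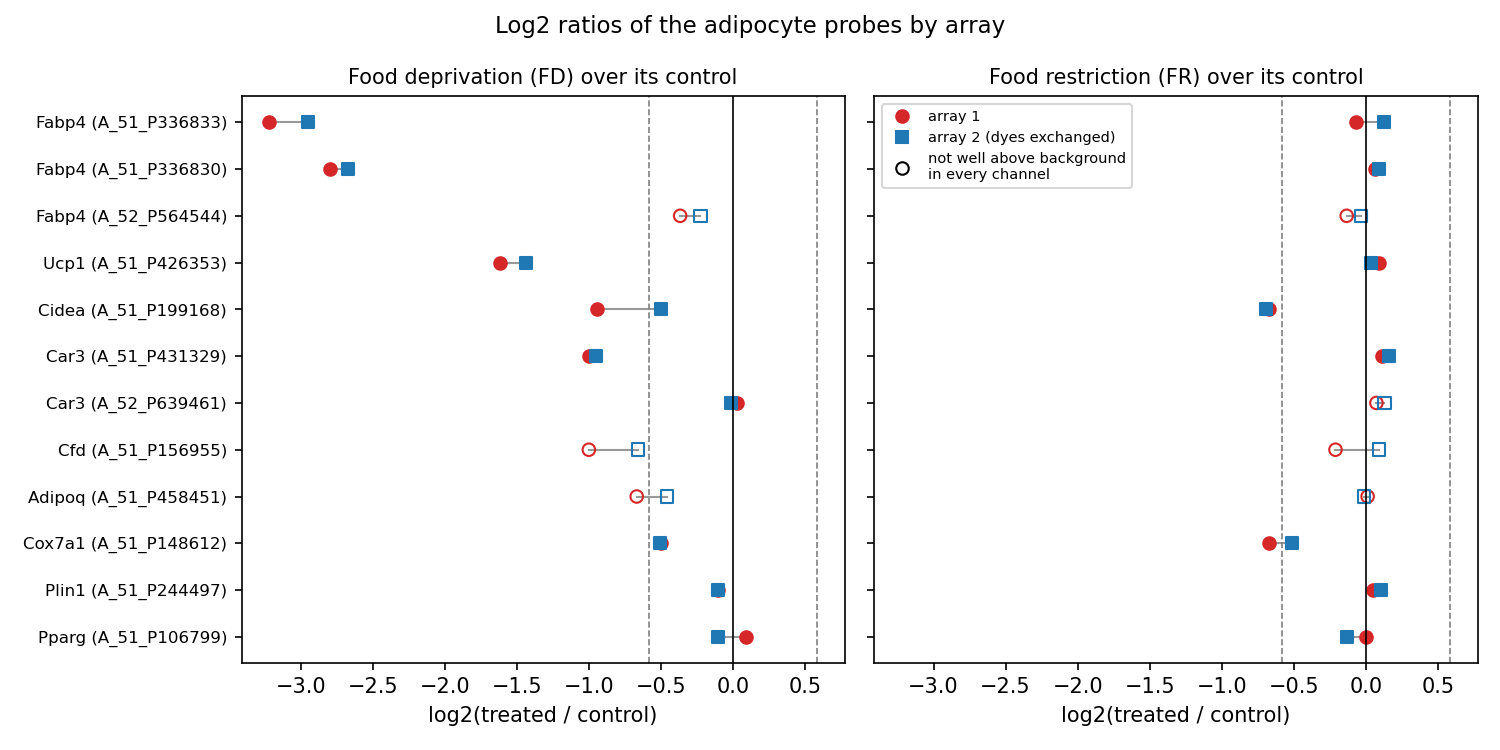
Log2 ratio of treated over control RNA (x axis) for each of the 12 probes (y axis), with FD on the left and FR on the right. Circles are array 1 and squares array 2, open symbols mark probes not well above background in every channel, and dashed lines mark 1.5-fold. In FD, both bright Fabp4 probes lie near -3 and Ucp1 near -1.5, whereas in FR the same probes lie within 0.13 of 0 and only Cidea is left of the dashed line on both arrays.

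After a week of food restriction the set looked different. Of the 7 measured genes, 1 was at least 1.5-fold lower on both arrays in the FR pool, Cidea at 1.61-fold, and 0 were higher. Over all 18541 genes measured in FR, 0.431% were lower and 0.582% were higher by this rule. The median log2 ratio of the 7 genes was 0.03, against 0.01 over all genes.

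Cidea had intensities of 1128 in the FR pool and 542 in its control pool on array 1, and of 274 in the FR pool and 1823 in its control pool on array 2. The log2 ratios were -0.67 and -0.69. Cox7a1 had log2 ratios of -0.67 and -0.51, a mean 1.51-fold difference, with array 2 just short of the size rule. The mean log2 ratios of both genes, -0.68 and -0.59, lay outside the range from -0.42 to 0.43 that held 95% of genes in FR. Here too the range only gives a scale, since the genes were chosen from ratios on these same arrays. The call on Cidea did not survive 2 other ways of processing. Its mean log2 ratio was -0.42 with the background fitted on all spots, a bright patch on array 2 included, and -0.74 with median centring in place of loess, where 1 array stayed under the size rule.

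Fabp4 showed no such difference in FR. Probe A_51_P336833 gave intensities of 195 in the FR pool and 91.3 in its control pool on array 1, and of 81.7 in the FR pool and 180 in its control pool on array 2, with log2 ratios of -0.07 and 0.13. Ucp1 gave 123 in the FR pool and 67.1 in its control pool on array 1, and 60.4 in the FR pool and 105 in its control pool on array 2, with log2 ratios of 0.09 and 0.04. In both genes the brighter channel was the Cy5 channel on each array, whichever pool it held.

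The remaining genes were near 0 in FR as well. The brighter Car3 probe gave log2 ratios of 0.11 and 0.16, Plin1 gave 0.05 and 0.10, and Pparg gave 0.00 and -0.13. Cfd was well above background only in the control pool of FR on array 2, and Adipoq only in the FR pool on array 1. Neither gene was therefore measured in FR, and no fold is given for them.

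Set against each other, the log2 ratio in FD was below that in FR by at least 1.5-fold, in each dye orientation, for Fabp4, Ucp1 and Car3. These were 3 of 7 measured genes, and over the 16741 genes measured on all 4 arrays 0.269% were lower in FD by this rule and 0.0717% were higher. The FD minus FR differences were -3.11 for Fabp4 (-3.15 and -3.07 by dye orientation), -1.59 for Ucp1 (-1.71 and -1.48) and -1.11 for Car3 (-1.11 and -1.12). For Cidea the difference was -0.27 in one orientation and 0.19 in the other, and for Cox7a1 0.18 and 0.00. The ratios to control of Cidea and Cox7a1 therefore did not differ between FD and FR beyond the difference between arrays.

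**Figure D2:**
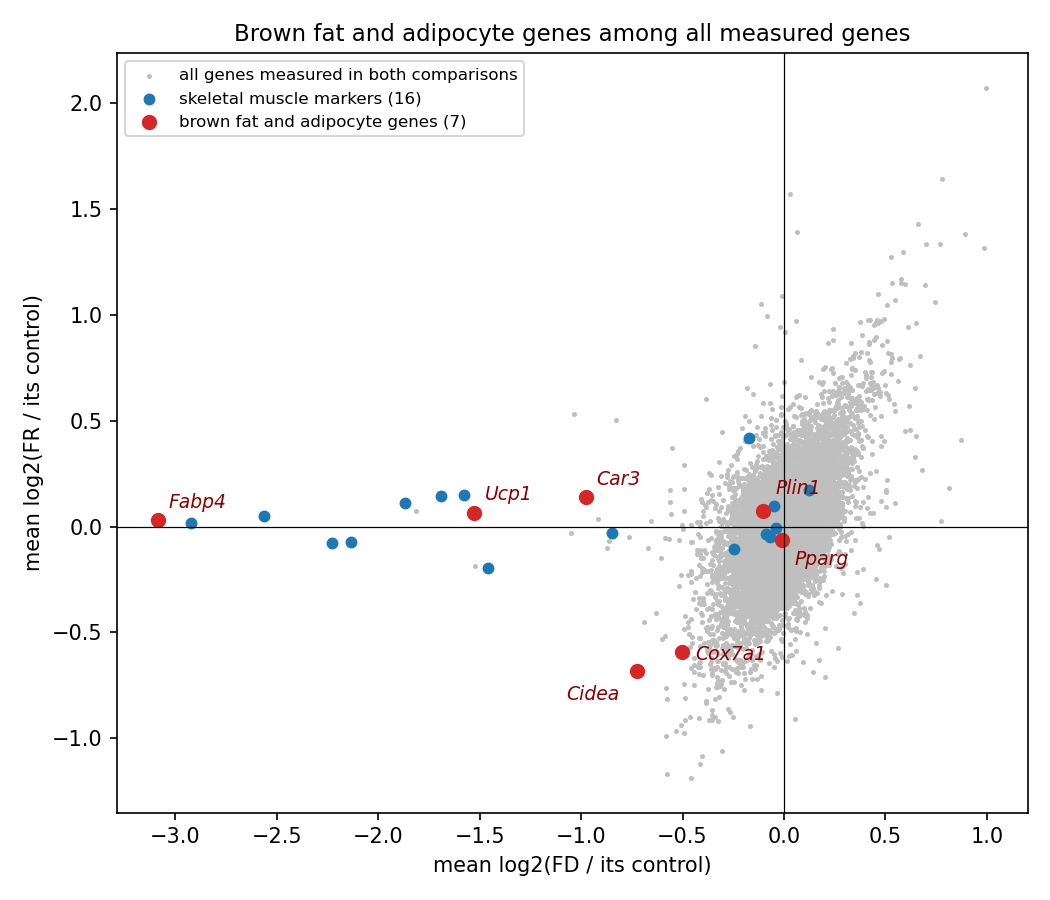
Mean log2 ratio of FD over its control (x axis) and of FR over its control (y axis) for every gene measured in both comparisons (grey), with the 7 measured brown fat and adipocyte genes in red and 16 skeletal muscle markers in blue. Fabp4, Ucp1 and Car3 lie far left at heights near 0, among muscle markers, whereas Cidea and Cox7a1 lie below 0 on both axes.

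The 4 pools were also compared by their channel levels. Levels are log2 signals of a probe after normalisation within and between arrays, averaged over the dyes, and are compared between pools only for the same probe. Fabp4 stood at 6.85 in the FD pool and 7.16 in the FR pool, against 9.93 in the control pool of FD and 7.13 in the control pool of FR. The other 3 pools were close to each other, and the control pool of FD stood 2.77 above the next.

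For Ucp1 and Car3, too, the control pool of FD was the highest, while the order of the other 3 pools varied between the genes. Ucp1 stood at 6.57 in the FD pool and 6.55 in the FR pool, against 8.10 in the control pool of FD and 6.48 in the control pool of FR. Car3 stood at 6.82 in the FD pool and 6.86 in the FR pool, against 7.80 in the control pool of FD and 6.72 in the control pool of FR. For these genes the FD pool differed from the FR pool by -0.31 (Fabp4), 0.02 (Ucp1) and -0.04 (Car3), whereas the control pool of FD differed from the control pool of FR by 2.80, 1.61 and 1.08 in the same order.

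Differences between pools are not given for Cfd and Adipoq, since their signals were close to background. In none of the pools but the control pool of FD was either gene well above background on both arrays.

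For Cidea and Cox7a1 each treated pool lay below its own control pool. Cidea stood at 9.85 in the FD pool and 9.29 in the FR pool, against 10.58 in the control pool of FD and 9.98 in the control pool of FR. Cox7a1 stood at 9.35 in the FD pool and 9.06 in the FR pool, against 9.85 in the control pool of FD and 9.66 in the control pool of FR. The FD pool stood above the FR pool by 0.56 for Cidea (0.39 in Cy5 and 0.74 in Cy3) and by 0.28 for Cox7a1. For 95% of the genes measured on all arrays this difference lay between -0.40 and 0.36. The control pools differed by 0.60 for Cidea and by 0.19 for Cox7a1. For Plin1 and Pparg they differed by 0.12 and 0.00.

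The control pool of FD was the highest of the 4 pools for all 9 genes on their brightest probes, by margins from 0.00 (Pparg) to 2.77 (Fabp4). For Cfd and Adipoq the other pools are counted at signals not well above background on both arrays, so their order rests on bounds. Over the 16741 genes measured on all arrays, which include 7 of the 9, the control pool of FD was the highest for 21.96%. The 9 genes were chosen from ratios on these same arrays, so nothing is read from their count. The count was 8 with quantile normalisation, 7 with scanner-processed signals, 9 without array 1 of each comparison and 7 without array 2. On array 1, where the control pools carried Cy3, Plin1 and Pparg were the exceptions.

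**Figure D3:**
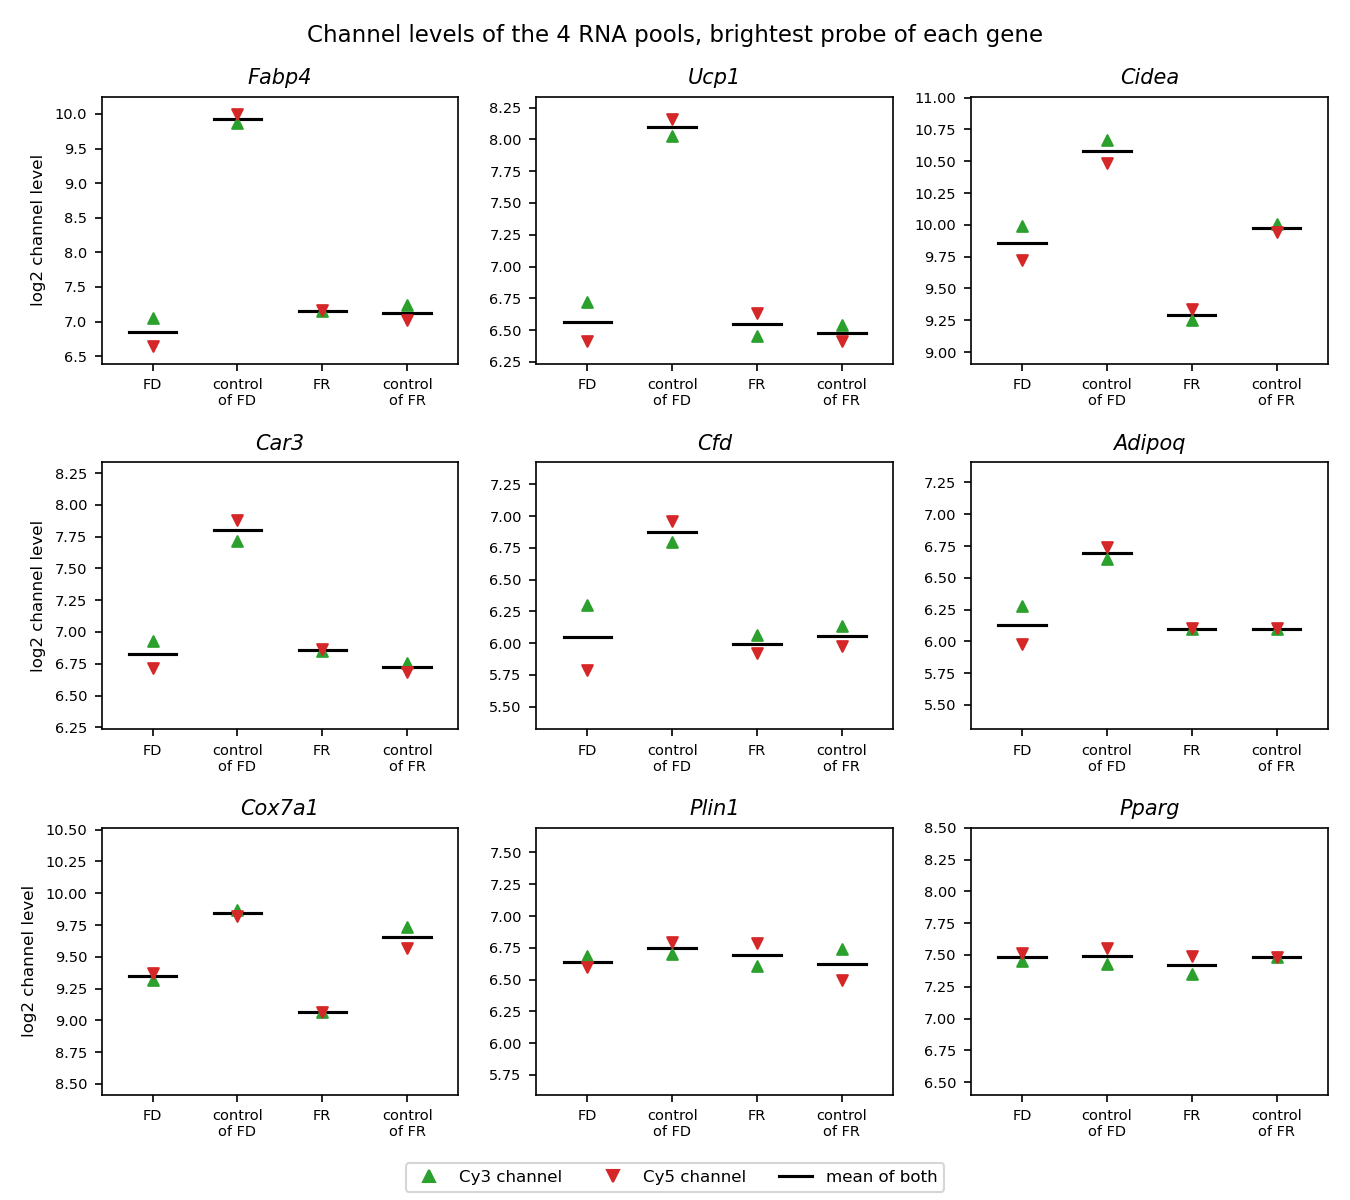
Log2 channel level (y axis) of the brightest probe of each gene in the FD pool, its control pool, the FR pool and its control pool (x axis). Triangles give the Cy3 and Cy5 channels and the bar their mean, and each panel spans at least 2 log2 units. For Fabp4, Ucp1 and Car3 the control pool of FD stands above the other 3 pools in both dyes, for Cfd and Adipoq it does so over signals close to background, and for Cidea and Cox7a1 each treated pool lies below its own control.

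The label was set against marker genes. Of 10 mature adipocyte markers on the array, 5 were well above background on both arrays in the FD pool and 6 in the FR pool, against 7 in the control pool of FD and 6 in the control pool of FR. That list shares Adipoq, Plin1 and Cfd with the set. Adipoq and Cfd alone made the difference between the FD pool and its control pool, so that difference adds nothing to the values above. Lep, the hormone leptin, and Aqp7, the glycerol channel of adipocytes, were well above background in no pool. Of 28 thermogenic and brown fat mitochondrial genes on the array, 21 were detected in this way in the FD pool and 22 in the FR pool, against 22 in each control pool. Elovl3, Otop1, Kng1, Kng2, Ucp3 and Fgf21 were detected in no pool. All 12 neuron markers were detected in each of the 4 pools. By ratio, 0 of 5 measured mature adipocyte markers, Plin1 among them, were lower or higher in FD by the size rule, with a median of -0.10. In FR it was 0 of 6, with a median of 0.03. The rule for measured genes left Cfd and Adipoq out in FD, since neither was well above background in the FD pool. They were at least 1.72-fold and 1.48-fold lower there. The median in FD therefore describes only markers detected in the FD pool. As a list, those did not show differences of the size seen for Fabp4 and Ucp1. The name brown fat and adipocyte transcripts is a statement about where the 9 genes are best known, and these arrays do not show which cells of the samples carried them.

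Skeletal muscle markers moved with Fabp4 and Ucp1. Of 16 measured muscle markers, 9 were lower in FD by the size rule and 0 were higher, with a median log2 ratio of -1.15. Over all 17945 genes measured in FD, 0.128% were lower and 0.0892% were higher. The muscle list was chosen with earlier results of these data known, so the count is a description only. Of 17 measured in FR, 0 were lower or higher, with a median of 0.02. Their mean log2 level was 7.54 in the FD pool and 7.75 in the FR pool, against 8.64 in the control pool of FD and 7.71 in the control pool of FR. The control pool of FD was the highest for 11 of the 16. Ckm, Mb and Des were well above background on both arrays in the control pool of FD and not in the FD pool. Car3 and Cox7a1 are themselves expressed in muscle. The part of muscle tissue in the differences of the adipocyte genes was not tested.

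The genes whose 4 log2 ratios were closest to those of Fabp4, by Euclidean distance over 16741 genes, were all muscle genes. They were Myl1, the myosin light chain of fast fibres (distance 0.26), the troponins Tnnc2 and Tnni2, the myosin light chain Mylpf and Sln (sarcolipin), which binds the calcium pump of muscle. Myl1 had log2 ratios of -3.08 and -2.77 in FD and of 0.01 and 0.02 in FR. Closest to Ucp1 were the developmental myosins Myh3 (distance 0.37) and Myh8, skeletal actin Acta1, the pituitary hormone gene Gh and again Sln. Gh had log2 ratios of -1.56 and -1.48 in FD and of 0.05 and -0.43 in FR. The distances describe likeness over 4 arrays of 1 slide and carry no test.

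Fabp4 is also expressed in capillary endothelium and in macrophages. Of 11 measured endothelial markers, 0 were lower or higher in FD and in FR, with medians of -0.04 and -0.05. Flt4, an endothelial marker, was well above background on both arrays in every pool but the FD pool. Of 12 macrophage markers, again 0 were lower or higher in either comparison, with medians of 0.05 and -0.06. Among fibroblast and mesenchyme markers, 1 of 9 was lower in FD, the collagen gene Col1a1 at a log2 ratio of -0.83, and among cartilage and bone markers 1 of 10, Spp1 (osteopontin) at -0.97. In FR, Col1a1 stood at 0.50 and the cartilage collagen Col2a1 at 0.63, the only one of these markers past the size rule. Hepatocyte markers stood on the other side, with a median of 0.51 over 6 measured genes in FD and 1 past the size rule, Ahsg at 0.87. In FR their median was 0.22 over 6 measured genes, with 5 positive on both arrays and 1 past the size rule, Afp at 0.72.

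**Figure D4:**
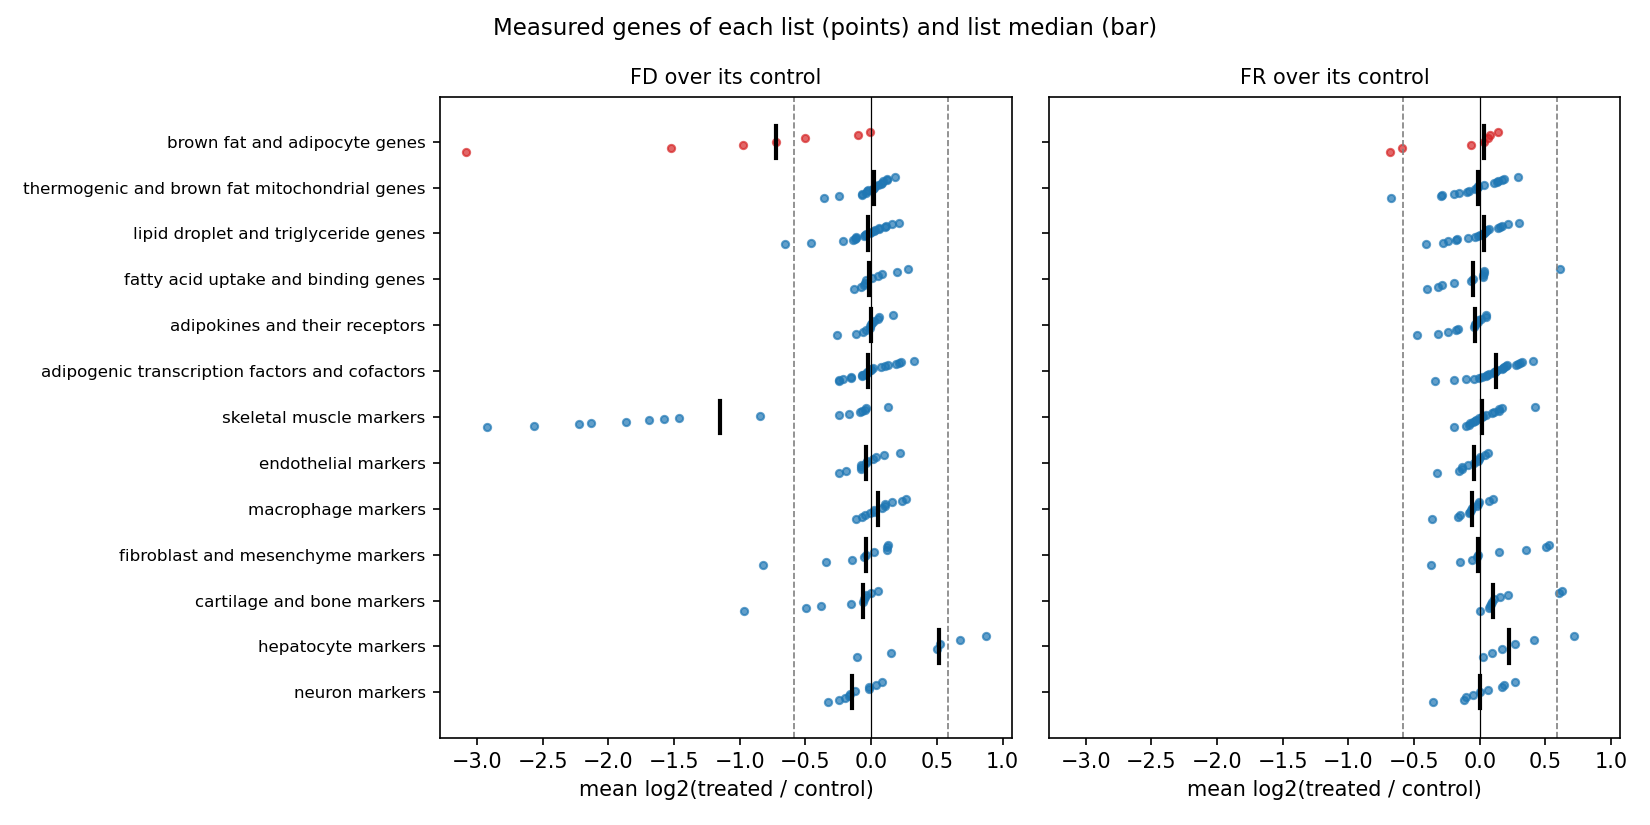
Mean log2 ratio (x axis) of each measured gene of each list shown (y axis), with FD on the left and FR on the right. The mature adipocyte markers are not among the lists shown. Points are genes, the black bar is the list's median and dashed lines mark 1.5-fold. In FD, 2 lists have medians left of the dashed line, the brown fat and adipocyte genes (-0.72) and the skeletal muscle markers (-1.15), whereas in FR no median passes it. The brown fat and adipocyte genes were chosen from ratios on these same arrays, and the lists with earlier results known. Nothing is therefore read from the place of these medians.

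Other genes of the thermogenic programme were close to 0. Of 17 measured thermogenic and brown fat mitochondrial genes in FD and 18 in FR, 0 were lower or higher by the size rule, and the medians were 0.02 in FD and -0.02 in FR. Pank1, a kinase of coenzyme A synthesis, stood at -0.36 in FD and -0.67 in FR, with array 1 of FR short of the size rule at -0.54. Ppargc1a, the coactivator of mitochondrial genes, stood at -0.25 in FD, Pdk4, which restrains pyruvate oxidation, at 0.18 in FD, and Dio2, which activates thyroid hormone in brown fat and brain, at -0.29 in FR. Cox8b, a cytochrome c oxidase subunit of muscle and brown fat, was well above background on both arrays in the control pool of FD and not in the FD pool.

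Among lipid droplet and triglyceride genes, 1 of 20 measured was lower in FD and 0 of 20 in FR, with medians of -0.02 and 0.03. The gene was Gpd1, the cytosolic glycerol-3-phosphate dehydrogenase that supplies the backbone of triglyceride, with log2 ratios of -0.67 and -0.64 in FD. In FR its mean was 0.03. Cidec, a relative of Cidea on the droplets of white adipocytes, had -0.45 and -0.47 in FD and a mean of 0.01 in FR, without passing the size rule. The lipases of stored fat, Pnpla2 and Lipe, had means of 0.11 and 0.03 in FD. Gpd1 and Cidec thus had the same signs as Fabp4 and Ucp1 in FD, whereas most of the list did not differ.

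Genes of fatty acid uptake and binding gave 0 of 10 past the size rule in FD. In FR, 1 of 11 was higher, Acsl1, which activates long-chain fatty acids, at log2 ratios of 0.60 and 0.62, and 0 were lower. In FD Acsl1 stood at 0.28. Fabp5, a fatty acid binding protein of the same family as Fabp4 and a brain transcript as well, stood at -0.04 in FD and -0.32 in FR (-0.15 and -0.48 on the arrays). Of adipokines and their receptors, 0 of 12 passed in FD and 0 of 13 in FR, with Cmklr1, the receptor of chemerin, at -0.26 in FD and Rarres2, which encodes chemerin, at -0.48 in FR.

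Adipogenic transcription factors and cofactors gave 0 past the size rule among 22 measured in FD and 24 in FR, with medians of -0.02 and 0.12. Srebf1, a regulator of lipid synthesis, stood at 0.41 in FR, and Nr1h3, the liver X receptor alpha, at -0.34. Klf15 gave 0.72 and -0.06 in FD and 0.80 and -0.15 in FR, with the high value on the array that carried the treated pool in Cy5 each time. Ppara, a relative of Pparg, was at -0.03 in FD and 0.05 in FR.

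In the families of Ucp1, Car3, Cox7a1 and Cfd no other measured gene passed the size rule. Ucp2 stood at 0.08 in FD and -0.01 in FR, and Ucp3 was well above background in no pool. Of carbonic anhydrases other than Car3, 0 of 13 measured passed in FD and 0 of 15 in FR, with Car15 at -0.22 in FD and Car10 at -0.35 in FR. Of cytochrome c oxidase subunits, 0 of 8 measured passed in FD and 0 of 7 in FR. Cox6a2, another subunit of heart and muscle, stood at -0.41 in FD and -0.05 in FR, and Cox7a2, the widely expressed counterpart of Cox7a1, at 0.11 in FD and -0.05 in FR. Alternative complement pathway genes gave 0 of 7 in each comparison, with Cfp (properdin) at -0.17 in FD and -0.32 in FR.

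Promoters of 6 of the 9 genes are in the RefSeq promoter table for build GRCm38.p6, and Fabp4, Cidea and Car3 are named only. The 250 bases before the start are shown for Ucp1 and Adipoq, which belong to thermogenesis and to hormone secretion. Both had the highest level in the control pool of FD in both dyes, as did Cfd and Cox7a1, whose windows are not shown. For Adipoq and Cfd the signals of the other pools were close to background. Capitals mark matches to TGACG, a core of the cyclic AMP response element, and AGGTCA, the hexamer of nuclear receptors, in Ucp1, and to CCAAT, read as ATTGG on the other strand, in Adipoq.
Ucp1, chr8:83290098-83290347, plus strand: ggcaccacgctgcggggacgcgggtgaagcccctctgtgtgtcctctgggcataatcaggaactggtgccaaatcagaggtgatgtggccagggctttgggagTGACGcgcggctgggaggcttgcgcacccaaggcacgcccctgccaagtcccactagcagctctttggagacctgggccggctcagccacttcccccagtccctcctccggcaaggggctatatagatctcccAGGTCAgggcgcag
Adipoq, chr16:23146286-23146535, plus strand: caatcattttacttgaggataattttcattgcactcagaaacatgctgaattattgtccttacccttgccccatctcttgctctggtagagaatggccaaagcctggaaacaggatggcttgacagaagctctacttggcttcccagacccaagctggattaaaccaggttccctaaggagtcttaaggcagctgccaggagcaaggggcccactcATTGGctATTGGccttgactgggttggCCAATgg
Motifs were searched on both strands as exact letters, and none of the matches shown overlap. In Ucp1, TGACG began at position -147 and AGGTCA at -14 from the start. Among 32851 promoter windows of the same length, 17.8% held TGACG, 14% held AGGTCA, 33.8% held CCAAT and 12.4% held TATAAA. No window of Ucp1, Cfd, Adipoq, Cox7a1 or Plin1 held TATAAA. The matches describe the letters of these windows only.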

How the data were processed

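RNA of fetal mouse brain was hybridised to 2-colour Agilent arrays (4 arrays, 1 slide). Scanner files as deposited give uncorrected mean spot intensity and median local background intensity per channel, per the file headers, made with Agilent Feature Extraction 9.5.3.1. The software's log10 ratio (red over green, after its background subtraction, detrending and dye normalisation, per the file headers) was used as an alternative. The authors' value table states no unit. Its columns correlated with the scanner ratio, over spots well above background, at r = 1, -1, 1 and -1 (0.840, -0.872, 0.927 and -0.887 over all spots), so the deposited values were read as log2 ratios of treated over control. Its column medians were -0.03, 0.03, -0.03 and 0.01.

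Normexp background correction (offset 50) and loess within arrays were run in limma 3.58.1 under R 4.3.3. Spots whose local background was over 2 times the array median were left out first, among them 42 spots in a bright patch on array 2 of FR, where the local background reached 65319. Control spots and outlier-flagged spots were left out, and spots of a probe were averaged. Channel levels were made comparable between arrays with Aquantile. The offset, added to both channels, pulls folds of dim probes towards 1. Probes were named through the accession in the file (26918 of 41174), a current symbol (5082) or an older symbol (817); for 8357 the name in the file was used.

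Measured probes are those well above background in all 4 channels of a comparison, and a gene was represented by its brightest measured probe. Folds given as at least a value count the dim pool on each array at the higher of 2 levels. These are its measured level and the lowest level called well above background in that channel. The size rule asked for at least a 1.5-fold difference, in the same direction, on both arrays. Each condition is 1 pool, and the arrays of a comparison are a dye swap of the same pools, so no test or p-value was computed. Named genes are all 9 members, up to 3 genes of each list with the largest absolute mean log2 ratio in each comparison, paralogs of members, and the 5 genes most like Fabp4 and Ucp1. Other genes are named where a count or a detection call rests on them. Members and lists were chosen with earlier results of these data known.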

Additional observations from a re-analysis of the deposited data

Results flagged for a closer look

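The log2 ratio to control lay below 0 on both FD arrays and above 0 on both FR arrays for 4 probes. The FD minus FR difference was -2.81 for Fabp4 on probe A_51_P336830, -1.59 for Ucp1, -1.11 for Car3 on probe A_51_P431329 and -0.18 for Plin1. These differences were not tested, since each condition is 1 pool. For Fabp4, Ucp1 and Car3 they lie mainly between the control pools, and for Plin1 the size is within the range that held 95% of genes in FD against FR (-0.33 to 0.33). On Fabp4 probe A_51_P336833 the FR arrays had opposite signs (-0.07 and 0.13).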

How the results depend on the processing

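No paired analysis was possible because the arrays of a comparison hold the same 2 pools and no result comes from a test. In the comparison in which a member passed the size rule, its sign was kept under the alternatives run. Values near 0 changed sign under some, such as Fabp4 in FR (0.03, with -0.07 to 0.13 over the alternatives) and Cidea in FD against FR (-0.04, with -0.30 to 0.19). In FD, 3 genes of the set were lower, 2 with the 2-fold threshold or the mean of measured probes (Car3 lost), and 4 with the scanner log ratio, the authors' deposited table (Cidea added in both) or no filter on dim probes (Cfd added). Single arrays gave 3 to 4. In FR the count was 1, and 0 with normexp on all spots, median centring or the 2-fold threshold. Single arrays gave 1 to 2, with Cox7a1 added without array 2. The cause of these changes was not tested beyond the construction of each alternative.

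Counts over all genes moved more. Lower genes in FD numbered 23, against 67 with the scanner log ratio, 67 in the authors' deposited table, 12 at 2-fold and 60 to 101 on single arrays. Higher genes in FD numbered 16, against 74 with the scanner log ratio and the authors' deposited table, 2 with median centring, 0 at 2-fold and 34 to 79 on single arrays. Lower genes in FR numbered 80, against 4 with normexp on all spots, 287 with the scanner log ratio and the authors' deposited table, 6 with median centring, 5 at 2-fold and 238 to 247 on single arrays. Higher genes in FR numbered 108, against 9, 318, 31, 19 and 241 to 307 under the same alternatives in the same order.

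Single pools, dim probes for Fabp4, Ucp1, Car3, Cfd and Adipoq, and 1 slide limit all values. Signals near the local background give only bounds for Cfd, Adipoq and Fabp4 probe A_52_P564544. An intensity ratio between dim and bright channels depends on the offset.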
